A study of Mus musculus with 6 samples.

Results

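The cytosolic ribosomal protein genes encode the protein subunits of the cytoplasmic ribosome. The members were the protein coding genes whose symbol is Rpl or Rps followed by a digit, with Rpsa, Rplp0, Rplp1 and Rplp2 added, and with the Rps6k kinases (10 genes) and the 4 protein coding names that end in -ps left out. This gave 84 of the 20107 genes in the count table, 50 with Rpl and 34 with Rps symbols. All groups were livers of wild type male C57BL/6N (Envigo) mice aged 16 weeks, from littermates. The HFHC mice (replicates 1, 2 and 3) had a high-fat, high-calorie food with fructose and a high-fructose drink for 8 weeks from the age of 8 weeks, and the Chow mice (replicates 7, 8 and 9) had chow over the same time. Each liver gave 1 library of rRNA-depleted total RNA, and the single comparison is HFHC against Chow.

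Ribosomal proteins are made in matched amounts for the large and the small subunit, in which they fold and hold the ribosomal RNA. Their mRNAs start with a run of pyrimidines, the terminal oligopyrimidine tract, through which mTORC1 and the RNA-binding protein Larp1 set their translation. Mammalian genomes carry many processed pseudogenes of these genes, which are intronless copies of their mRNAs. The liver is rich in ribosomes, since hepatocytes make most plasma proteins.

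The libraries held 30096409 to 30871297 counts in HFHC and 26767416 to 27339613 counts in Chow. Levels are CPM, counts scaled to library sizes with TMM factors, and a log2 fold change is that of HFHC over Chow, given with its standard error (SE) from edgeR. A count of 3, taken as the floor of detection, stood for 0.0954 to 0.101 CPM in HFHC and for 0.109 to 0.114 CPM in Chow, which covers counting error alone. Hepatocyte markers (9 genes with Alb, Ttr and Apoa1) summed to 83800 to 87400 CPM in HFHC and 76200 to 96200 CPM in Chow, and none of the 9 was at 0 in all 6 libraries. In bulk RNA, fewer cells of a type and less RNA per cell cannot be told apart.

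The pyrimidine run was more common at the annotated starts of the members than at all starts, though most member starts lacked it. RefSeq (GRCm38.p6) gave promoters for 64 of the 84 members, with 76 annotated starts. A C at the annotated start followed by 4 bases that are each C or T stood at 14 of the 76, which is 18.4%, and at 2.51% of all 32851 starts in the table. The windows below run from 10 bases before the start to 20 from it on, 5′ to 3′ on the strand of the gene, and capitals mark the pyrimidine run where one begins at the annotated start.
Rpl15: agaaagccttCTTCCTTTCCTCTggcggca
Rpl35: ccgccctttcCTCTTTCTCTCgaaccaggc
Rps10: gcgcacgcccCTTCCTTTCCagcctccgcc
Rps6: gaagtcgggcCTCTTTTTCgtgacgcctcc
Rpl38: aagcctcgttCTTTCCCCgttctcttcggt
Rplp2: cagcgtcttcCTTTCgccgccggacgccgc
Rps27: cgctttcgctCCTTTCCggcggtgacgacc
Rps27rt: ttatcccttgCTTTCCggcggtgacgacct
Rpl22l1: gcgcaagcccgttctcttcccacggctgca
Rpl5: cgtcgcttgcgtgctggtggtgctacatac
Rpsa: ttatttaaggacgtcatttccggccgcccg
Rpl15 (chr14:18270967-18270996, minus strand) had the run of 13 bases, and Rps6 (chr4:86857348-86857377, minus strand) had 9. The other windows with a run are those of Rpl35 (chr2:39005112-39005141, minus strand), Rps10 (chr17:27635225-27635254, minus strand), Rpl38 (chr11:114668570-114668599, plus strand) and Rplp2 (chr7:141447641-141447670, plus strand), shown as further examples of the run, which most of the member starts lack at the annotated base. Rps27 (chr3:90213629-90213658, minus strand) and its intronless copy Rps27rt (chr9:114982720-114982749, minus strand) are shown because their starts read alike from the run on. Rpl22l1 (chr3:28805498-28805527, plus strand), Rpl5 (chr5:107900518-107900547, plus strand) and Rpsa (chr9:120127756-120127785, plus strand) have no such run at the annotated start and are shown because their log2 fold changes were among the lowest. Allowing the run to begin within 10 bases of the annotated start gave 52.6% of the member starts and 30.7% of all starts.

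Other promoter words were read over the whole 300-base entries, on both strands. CCGGAAG, the core bound by ETS factors such as Gabpa, or its reverse CTTCCGG, was in 34.2% of the member promoters and 8.86% of all promoters. GGGCGG or CCGCCC, the GC box, was in 60.5% against 35.7%, and GCCATC or GATGGC, the YY1 core, in 23.7% against 14.1%. TATAAA or TTTATA was in 9.21% of the member promoters and 13.6% of all. A match describes letters and is not a binding site. The 14 tested members with the run at the annotated start had a median log2 fold change of -0.14 (range -0.56 to 0.04), and the 49 tested members with a promoter entry and no such run had -0.06 (range -0.44 to 0.21). The 14 hold both Rps27rt and Rps27, which had the -0.56 at means of 0.683 CPM in HFHC and 1.01 CPM in Chow. The difference between the 14 and the 49 was not tested.

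No ribosomal protein gene passed the test between the diets. Of the 84 members, 83 passed the filter on low counts, and 0 were called at an adjusted p under 0.05 by edgeR's quasi-likelihood test, where 6.67% of the 14896 genes tested were called. DESeq2 and limma-voom also called 0 members, where they called 8.45% and 6.4% of all genes. At an unadjusted p under 0.05, edgeR gave 9 members, all of them lower in HFHC. This is 10.8% of the members, beside 22.2% of all genes in either direction and 11.5% lower, and DESeq2 gave 10, beside 18.8% of all genes. The count of 9 depended on single livers. It was 4, 0 and 21 without HFHC replicate 1, 2 or 3 in turn, where 18.3%, 19.8% and 21% of all genes had such a p. It was 3, 17 and 0 without Chow replicate 7, 8 or 9, where 16.6%, 22.8% and 17.5% of all genes did. With the library trends on GC and length taken out it was 33 of 83, all lower in HFHC, beside 22.2% of all genes in either direction. Upper-quartile factors gave 5, beside 22.5% of all genes. Size factors from the members gave 2, beside 17.2% of all genes, and these factors bring the members near 0 by construction. The median log2 fold change of the 83 was -0.08 and that of all genes tested -0.003. The values ran from -0.56 (Rps27) to 0.43 (Rpl23a), with 64 below 0 and 19 above, and 91.6% of the members lay within 0.3 of 0, beside 73.7% of all genes. Among genes with a mean of at least 20 CPM the shares within 0.3 were 96.2% of 53 members and 82.4% of 5606 genes.

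**Figure D1:**
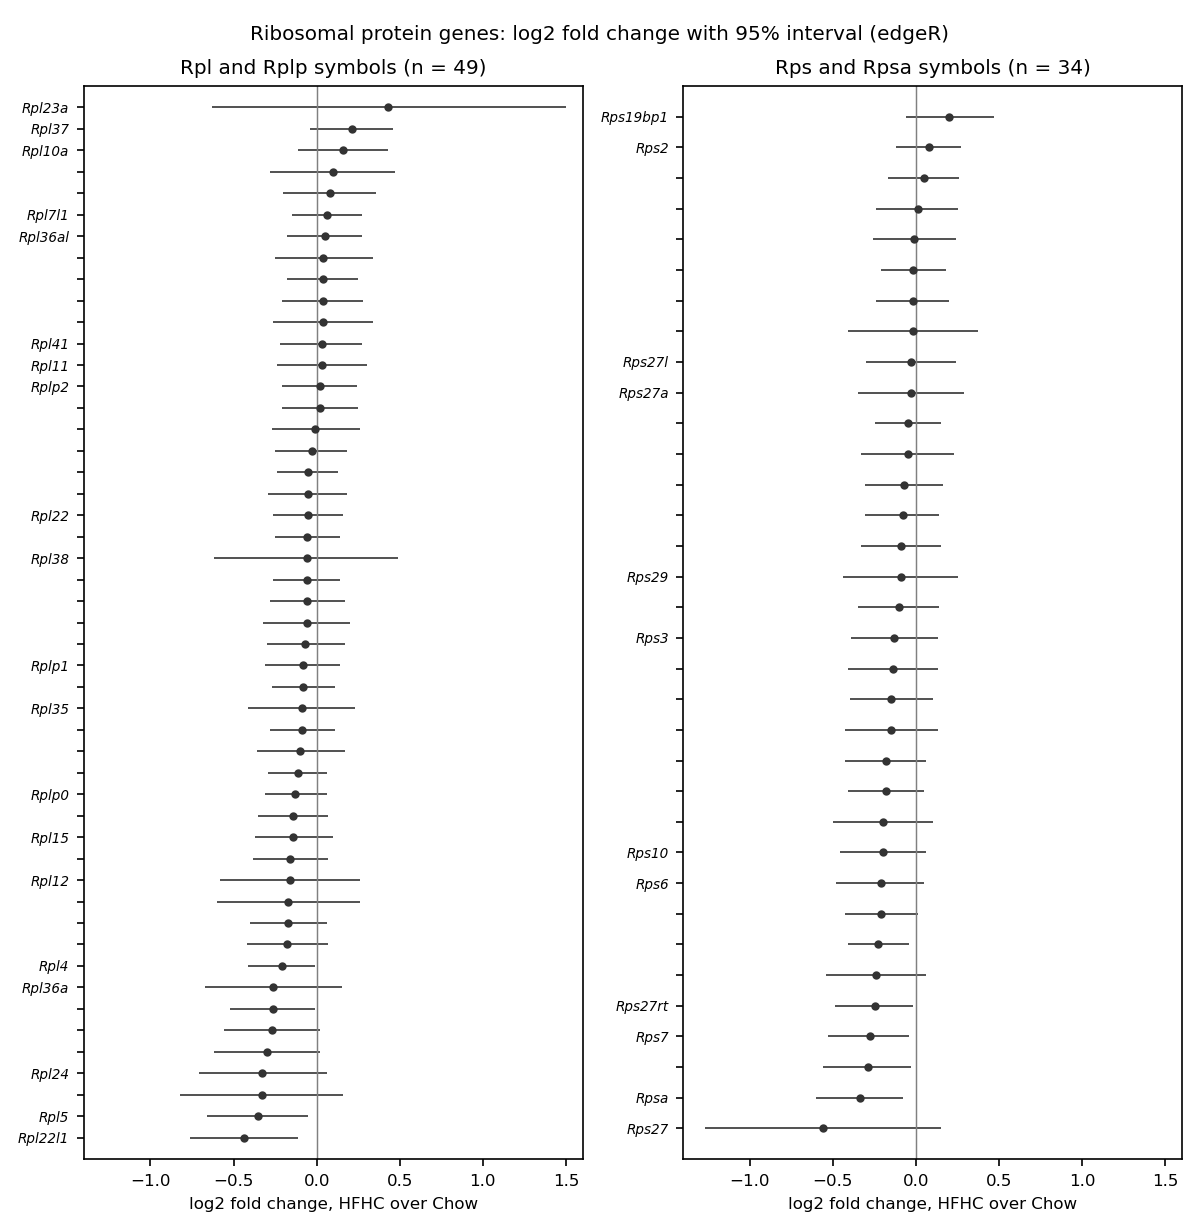
Log2 fold change of HFHC over Chow for the 83 tested ribosomal protein genes, with 95% intervals from edgeR as horizontal bars, ordered by size in each panel (left, Rpl and Rplp symbols; right, Rps and Rpsa symbols). Most points lie a little below 0, with medians of -0.06 and -0.12, and the widest bars belong to Rpl23a and Rps27. Only genes named in the text are labelled.

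How large a difference these livers leave room for is given by the intervals. The 95% interval of the log2 fold change stayed within 0.5 of 0 for 65 of the 83 members and within 1 of 0 for 81. The exceptions at 1 were Rpl23a (-0.63 to 1.5) and Rps27 (-1.27 to 0.15), both near or below 1 CPM. The genes with Rpl or Rplp symbols had a median of -0.06, with 34 of 49 below 0, and those with Rps symbols and Rpsa had a median of -0.12, with 30 of 34 below 0. The difference between the subunits was not tested.

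Rpl22l1, a paralog of the large subunit protein Rpl22, had the smallest adjusted p of the members (mm10, chr3:28805436-28807424, plus strand). Its level was 21, 16.6 and 22.3 CPM in HFHC livers, against 26.6, 22.7 and 31.8 CPM in Chow livers. Every HFHC liver lay below every Chow liver. The log2 fold change was -0.44 ± 0.15 (SE), with an adjusted p of 0.110 by edgeR. It passed without Chow replicate 8 (-0.54, adjusted p = 0.0472), where 3.63% of all genes were called lower, and once the library trends on GC and length were taken out (-0.41, adjusted p = 0.046). Rpl22 itself, the main form, had -0.05 ± 0.09.

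The diets also did not overlap in Rpl4 and Rpl37. Rpl4 (chr9:64173375-64178666, plus strand), a large subunit protein that reaches into the exit tunnel, had 352, 316 and 356 CPM in HFHC livers, against 390, 367 and 426 CPM in Chow livers (-0.21 ± 0.09, adjusted p = 0.204). Rpl37 (chr15:5116645-5119140, plus strand), also of the large subunit, was the member whose HFHC livers were all higher, at 6.31, 5.84 and 6.31 CPM, against 5.22, 5.41 and 5.40 CPM in Chow livers (0.21 ± 0.11, adjusted p = 0.316 by edgeR). So 3 of 83 members were apart and lower and 1 apart and higher, where 14.3% and 13.5% of all genes tested were. The own row of Rpl37 held 8.69% of the counts of the gene and its near-identical copies. With these summed, Rpl37 was at 66.7, 61.9 and 73.8 CPM in HFHC livers, against 65.2, 64.7 and 66.2 CPM in Chow livers. The diets then overlapped (0.05 ± 0.08). Rpl4 held 90.9% in its own row and stayed apart with its copies (-0.20 ± 0.09). Rpl4 was named after its values were seen.

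Rpsa and Rpl5 had the next lowest log2 fold changes among members of at least 5 CPM. Rpsa (chr9:120127689-120132369, plus strand), which is also known as the laminin receptor precursor, had 82.1, 74.3 and 94.2 CPM in HFHC livers, against 108, 91.6 and 117 CPM in Chow livers. HFHC replicate 3 overlapped Chow replicate 8, and the log2 fold change was -0.34 ± 0.12 (edgeR adjusted p = 0.122). Rpl5 (chr5:107900502-107909005, plus strand), which with Rpl11 forms the complex that binds Mdm2 when ribosome assembly fails, had 11.1, 10.8 and 14.3 CPM in HFHC livers, against 17.2, 13.8 and 15.2 CPM in Chow livers (-0.35 ± 0.14, adjusted p = 0.162). Rpl11 had 5.73, 5.58 and 6.53 CPM in HFHC livers, against 5.44, 6.11 and 5.93 CPM in Chow livers (0.03 ± 0.12). The livers of both diets interleaved for Rpl11. Rpl24 was at 5.70, 4.8 and 7.17 CPM in HFHC livers, against 6.52, 6.98 and 8.62 CPM in Chow livers (-0.33 ± 0.17, adjusted p = 0.3 by edgeR), again with overlap.

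At the other end stood Rps19bp1, Rpl10a and Rps2, beside Rpl37. Rps19bp1 is no ribosomal protein but a protein that binds Rps19, and the symbol rule brought it in. It had 9.32, 9.16 and 10.7 CPM in HFHC livers, against 7.70, 9.43 and 8.22 CPM in Chow livers (0.20 ± 0.12, adjusted p = 0.360 by edgeR). Rpl10a had 13.8, 13.1 and 14.2 CPM in HFHC livers, against 11.4, 14.6 and 11 CPM in Chow livers (0.16 ± 0.12), and Chow replicate 8 was the highest of the 6. Rps2, a small subunit protein near the mRNA entry, had 288, 259 and 291 CPM in HFHC livers, against 271, 246 and 278 CPM in Chow livers (0.08 ± 0.09), with the diets overlapping.

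The stalk proteins, which recruit the elongation factors to the ribosome, lay close to 0. Rplp0, the stalk base, had 190, 175 and 200 CPM in HFHC livers, against 211, 194 and 212 CPM in Chow livers (-0.13 ± 0.08). Rplp1 had 126, 110 and 134 CPM in HFHC livers, against 133, 118 and 141 CPM in Chow livers (-0.08 ± 0.10). Rplp2 had 22.7, 19 and 23.4 CPM in HFHC livers, against 21.2, 20.6 and 22.5 CPM in Chow livers (0.02 ± 0.10). For all 3, HFHC replicate 2 was the lowest of the 6 livers and the diets overlapped.

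Rps6, the small subunit protein that S6 kinases phosphorylate, had 27.2, 25.7 and 35.3 CPM in HFHC livers, against 33.7, 33.4 and 35.2 CPM in Chow livers (-0.21 ± 0.12, adjusted p = 0.328 by edgeR). Without HFHC replicate 3, the highest of the 6, it was called (-0.36, adjusted p = 0.0404), where 2.02% of all genes were called lower. Its own row held 12.2% of the counts of the gene and its near-identical copies, and with these summed it was not called without that liver (-0.22, adjusted p = 0.207 by edgeR). Rpl41, whose coding sequence of 75 bases is the shortest of the members, had 111, 97.3 and 116 CPM in HFHC livers, against 116, 90.9 and 111 CPM in Chow livers (0.03 ± 0.11). Rps27a, made as a fusion with ubiquitin, had 18.2, 15.2 and 21.8 CPM in HFHC livers, against 19.7, 16.2 and 20.7 CPM in Chow livers (-0.03 ± 0.14). In both genes the diets overlapped.

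Among the paralogs, Rpl36al had 135, 116 and 150 CPM in HFHC livers, against 131, 123 and 134 CPM in Chow livers (0.05 ± 0.10). Rpl7l1 had 53.3, 52.2 and 59.1 CPM in HFHC livers, against 47.0, 56.6 and 54.3 CPM in Chow livers (0.06 ± 0.09). Rps27l had 51.3, 51.7 and 65.4 CPM in HFHC livers, against 61.4, 50.1 and 60.4 CPM in Chow livers (-0.03 ± 0.12). The diets overlapped in each of the 3. Rpl3l, the striated muscle form of Rpl3, held 4 counts in HFHC and 3 counts in Chow, summed over 3 libraries each, and was the 1 member not tested. Rps27rt had 86.5, 74.7 and 95 CPM in HFHC livers, against 107, 92.2 and 106 CPM in Chow livers (-0.25 ± 0.10, adjusted p = 0.193 by edgeR), with HFHC replicate 3 above Chow replicate 8. It passed with the GC and length trends taken out (-0.32, adjusted p = 0.0237).

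The members deviated together between livers of the same diet. For each member, the log2 CPM minus its mean over the 6 libraries was taken. Its median over the 83 members was -0.03, -0.21 and 0.09 in HFHC replicates 1, 2 and 3, and 0.09, -0.05 and 0.11 in Chow replicates 7, 8 and 9. The same median over all genes tested lay between -0.01 and 0.01 in every library. HFHC replicate 2 was the lowest of the 6 livers for 64 of the 83 members, which is 77.1%, and for 15.9% of all genes tested. Chow replicate 8 was the lowest of the Chow livers for 64 members, also 77.1%, and for 38.6% of all genes tested. Without HFHC replicate 2 the median log2 fold change was 0.0, with 42 members above 0, and without HFHC replicate 3 it was -0.17.

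**Figure D2:**
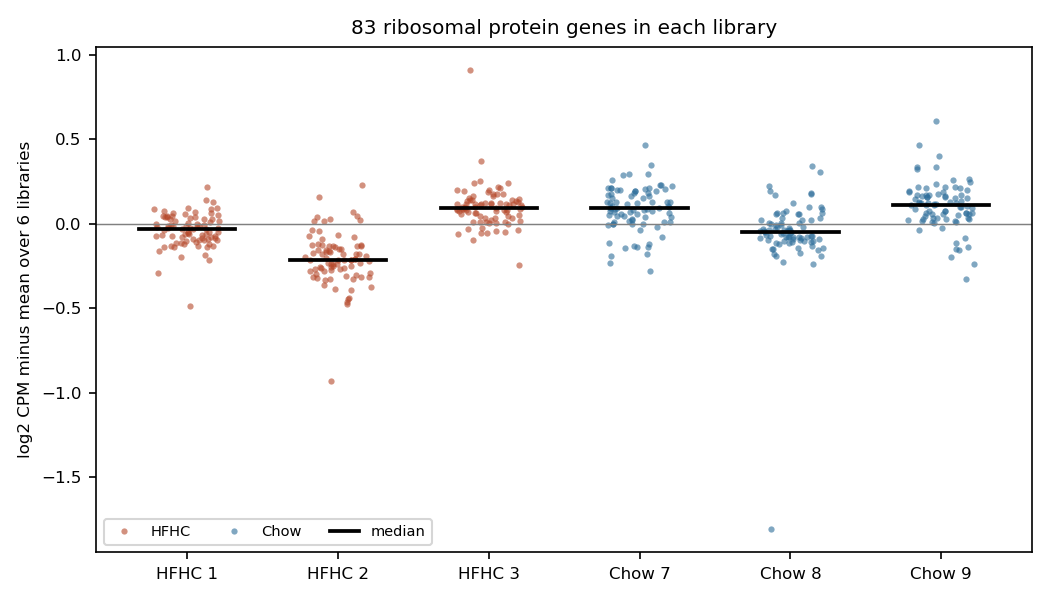
Log2 CPM of each of the 83 tested members minus its mean over the 6 libraries (vertical axis), by library, with HFHC livers at left and Chow livers at right; points are genes and black bars are medians. HFHC 2 sits lowest with a median of -0.21, and Chow 8 lies below the other Chow livers with -0.05.

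Summed over the 84 members, the level was 4368, 3877 and 4711 CPM in HFHC livers, against 4764, 4290 and 4898 CPM in Chow livers. The mean was 4319 ± 419 CPM in HFHC and 4651 ± 319 CPM in Chow (SD, n = 3 each). HFHC replicates 1 and 3 lay above Chow replicate 8, so the diets overlapped. The members took 0.396% to 0.467% of the counts in HFHC libraries and 0.435% to 0.475% in Chow libraries. Of 2541 other protein coding genes with at least 50 CPM, the 5 whose log2 CPM followed this sum most closely over the 6 libraries were Psme1, Ttc38, Calm2, Sptssa and Hmgn5. Their Pearson correlations were 0.993, 0.990, 0.989, 0.986 and 0.983, which describe 6 libraries that share their depth and composition.

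The members' transcripts had a median length of 830 bases and those of all genes tested 2695 bases, with median GC contents of 50.7% and 49.8%. Counts in every library had a trend on GC and length, fitted over all genes tested. At the members this trend was 0.0448, -0.0148 and 0.0965 (log2) in HFHC replicates 1, 2 and 3, and -0.0287, -0.085 and -0.0127 in Chow replicates 7, 8 and 9. Taking it out gave 6 members called, all lower in HFHC, where 2.72% of all genes were called lower, and a median of -0.18. With the counts of near-identical copies added, 5 were called lower, where 2.63% of all genes were. Among the 6 in their own rows were Rpl22l1 and Rps27rt, given above, and Rps7, a small subunit protein chosen by this result (-0.35, adjusted p = 0.0418). Whether the trend is technical was not tested.

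Many counts that match the members' sequence sat in other rows of the table. A search of all transcripts of the table against the members found 343 copies of 77 members (at least 90% identity over at least 50% of the copy and of the coding sequence), 321 of them processed pseudogenes. Over all families the members' own rows held 37.7% of the counts, and the median own share was 30.0%. For 17 members it was below 10%, as for Rpl23a (0.57%), Rpl11 (3.25%) and Rpl5 (4.39%). In 73 members the deposited values were not whole in any of the 6 libraries, and in 3 they were whole in all 6, where 71.5% of all genes were whole in all 6 (tolerance 0.01). The levels and differences of single members above are uncertain to that extent.

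Own shares tended to be lower where more of the sequence was shared. For each member, all stretches of 75 bases, the length of a read, were taken from the coding sequence and looked up in the transcripts of its copies. Over 82 members, a median of 80.8% of these stretches occurred in a copy, and for 25 members 100% did. The 44 members with at least 80% had a median own share of 13.9%, and the 14 with less than 20% had 95.1%. Across members Spearman's rho was -0.84 and Pearson's r -0.90, as a description over genes that share the list of copies. Rps3, with no shared stretch, kept 99.7% of its family's counts.

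**Figure D3:**
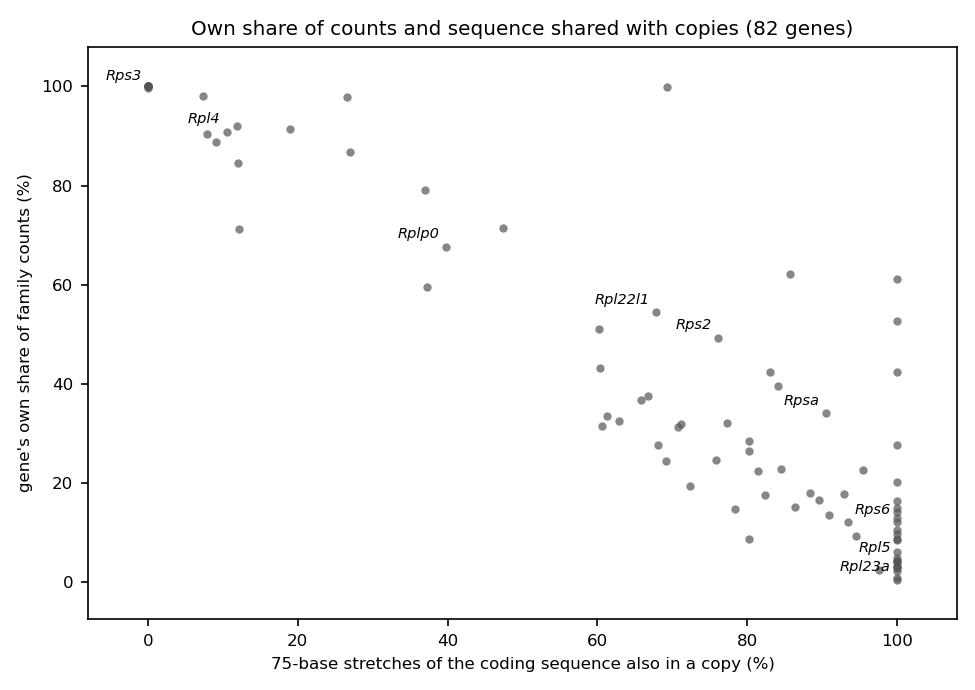
Share of 75-base stretches of the coding sequence that also occur in a copy (horizontal axis, percent) and the gene's own share of its family's counts (vertical axis, percent) for 82 members; Rps27 and Rps27rt are not drawn. Genes at 100% shared sequence reach down to an own share of 0.57% (Rpl23a), and those near 0% stand close to 100%.

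The next values are for 2 pairs of related members. Rps27 (mm10, chr3:90212522-90213651) and Rps27rt (chr9:114982366-114982739) are both on the minus strand, and their coding sequences of 252 bases had 0 differences. Rps27 was at 0.941, 0.426 and 0.683 CPM in HFHC livers, against 1.12, 1 and 0.921 CPM in Chow livers, far below the copy given above. Rpl36a (chrX:134585654-134588062, plus strand) and Rpl36al (chr12:69182731-69184083, minus strand) differed at 39 of the 318 bases. The first 75 bases of both coding sequences (GENCODE M21) follow, from the start codon on, with the 13 differing bases in capitals.
Rpl36a: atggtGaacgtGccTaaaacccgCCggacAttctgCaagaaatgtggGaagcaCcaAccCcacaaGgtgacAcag
Rpl36al: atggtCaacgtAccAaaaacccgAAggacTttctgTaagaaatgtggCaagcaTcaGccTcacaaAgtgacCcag
These 2 genes were taken as separate families, each with its own copies. Rpl36al kept nearly all the counts of its family, although 69.3% of its 75-base stretches occurred in a copy. Rpl36a, with 100% of its stretches in a copy, held 4.21% of the counts of its family. Rpl36a stood at 2.19, 1.94 and 2.21 CPM in HFHC livers, against 2.09, 2.59 and 2.90 CPM in Chow livers (-0.26 ± 0.18).

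With the copies added, levels per length lay closer together. Here Rps27 was summed with Rps27rt, and Rps19bp1 and the untested Rpl3l were left out, which gave 81 members. Per kilobase of coding sequence, the mean level in HFHC ran from 2.03 to 1440 CPM in their own rows, with a median of 62.8, and from 62.8 to 2290 CPM with copies, with a median of 257. In Chow it ran from 1.51 to 1410 CPM in their own rows, with a median of 66.7, and from 60.8 to 2370 CPM with copies, with a median of 273. The SD of the log2 level over the members was 1.8 in HFHC and 1.82 in Chow in their own rows, and 0.71 in HFHC and 0.72 in Chow with copies. Rpl41 was at the top, on its 75 coding bases. Rpl38, Rplp2, Rpl7l1, Rps29 and Rpl22l1 were at the bottom with copies in Chow, at 60.8, 62.2, 72.5, 77.9 and 135 CPM per kilobase.

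**Figure D4:**
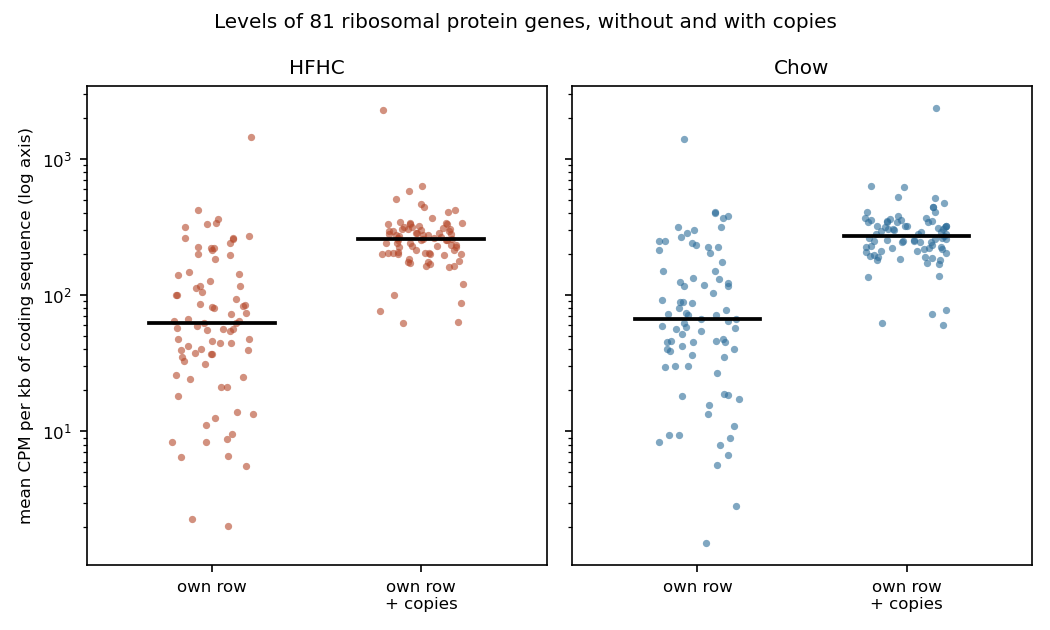
Mean CPM per kilobase of coding sequence (log axis) of 81 members from their own row and with all copies added, in HFHC livers at left and Chow livers at right; points are genes and black bars medians. The points draw together when copies are added, to medians of 257 in HFHC and 273 in Chow.

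The comparison of diets was repeated on these sums, an alternative chosen after seeing the data. Of 82 tested sums 0 were called by edgeR, where 6.84% of 14687 genes were, and DESeq2 called 1, Rpl22l1 (-0.42, adjusted p = 0.0414), where it called 8.59% of all genes. By edgeR 6 sums had an unadjusted p under 0.05, beside 22.4% of all genes. That count was 4, 2 and 20 without HFHC replicate 1, 2 or 3 in turn. The shares of all genes were then 18.5%, 20% and 21.1%. It was 3, 13 and 0 without Chow replicate 7, 8 or 9, with shares of all genes of 16.8%, 22.9% and 17.8%. With the GC and length trends taken out it was 41 of 82, all lower in HFHC, beside 22% of all genes in either direction. The median log2 fold change was -0.10, and 68 of the 82 were below 0. Rpl5 with its copies was at 291, 271 and 331 CPM in HFHC livers, against 339, 300 and 333 CPM in Chow livers, and its log2 fold change of -0.12 ± 0.10 was nearer 0 than that of its own row. Rpl24 likewise stood at -0.01 ± 0.10 and Rpl23a at -0.04. Rpsa stayed at -0.33 ± 0.11 (adjusted p = 0.120 by edgeR), with 247, 213 and 273 CPM in HFHC livers, against 325, 270 and 331 CPM in Chow livers. Rpl22l1 stayed at -0.42 ± 0.14 (adjusted p = 0.100). Rpl12 was lower in every HFHC liver, at 133, 113 and 137 CPM, against 160, 143 and 177 CPM in Chow livers (-0.32 ± 0.11, adjusted p = 0.107 by edgeR). All sums together came to 11566, 10266 and 12534 CPM in HFHC livers, against 12652, 11362 and 12999 CPM in Chow livers, which overlapped.

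No gene of the next 3 groups, which work with the ribosome or share its mRNA start, passed the test. Fau, which encodes a further ribosomal protein as a fusion with a ubiquitin-like protein, was at 18.1, 15.5 and 21.1 CPM in HFHC livers, against 18.8, 15.5 and 20.2 CPM in Chow livers (0.01 ± 0.14), with overlap. Rack1, the scaffold on the small subunit, had 193, 176 and 205 CPM in HFHC livers, against 222, 211 and 228 CPM in Chow livers (-0.21 ± 0.08), which did not overlap and did not pass (adjusted p = 0.180 by edgeR). Rack1 passed once the GC and length trends were taken out (-0.28, adjusted p = 0.045). Of 8 elongation factors 0 were called. Eef1a1 (0.02 ± 0.08), which brings tRNA to the ribosome, averaged 2910 CPM in HFHC and 2860 CPM in Chow. Eef2 (-0.04 ± 0.09), the translocase, averaged 975 CPM in HFHC and 1000 CPM in Chow. Of 18 other transcripts, not all of them mRNAs, listed as beginning with a terminal oligopyrimidine tract, 0 were called. Their median was -0.03, and their median deviation in HFHC replicate 2 was -0.10.

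Genes of ribosome production and control held 3 calls. Of 28 initiation factors 1 was higher, Eif6, which keeps the subunits apart, at 49.3, 47.2 and 50.4 CPM in HFHC livers, against 38.6, 39.8 and 31.3 CPM in Chow livers (0.42 ± 0.10, adjusted p = 0.036 by edgeR). The call of Eif6 ended without HFHC replicate 1 (0.102), 2 (0.0778) or 3 (0.0848) and without Chow replicate 7 (0.0894) or 9 (0.107). Of 51 ribosome assembly genes 0 were called, with a median of 0.11, and of 15 genes of RNA polymerase I transcription 0, with a median of 0.05. Of 21 genes of the mTORC1 pathway 0 were called, with Mtor at 0.22 ± 0.12 and Larp1 at -0.19 ± 0.08 (adjusted p = 0.190 by edgeR). Of 13 promoter factors, Mycn was higher, with 3.02, 3.94 and 2.72 CPM in HFHC livers, against 1.18, 1.38 and 1.51 CPM in Chow livers (1.25 ± 0.21, adjusted p = 0.00909 by edgeR), while Myc had -0.32 ± 0.32. The median of those 13 was -0.25. Of 8 genes of the p53 axis, Mdm4 was lower, with 62.2, 64.8 and 61.7 CPM in HFHC livers, against 79.2, 74.7 and 76.7 CPM in Chow livers (-0.29 ± 0.07, adjusted p = 0.0444 by edgeR), and this call ended whichever 1 of the 6 libraries was left out (adjusted p = 0.0592 to 0.169). Taking out the GC and length trends ended the calls of Eif6 (0.0739) and Mdm4 (0.274). So did size factors from the members (0.0916 for Eif6 and 0.498 for Mdm4), and for Mdm4 also upper-quartile factors (0.0639) and no filter on low counts (0.0685). Counts called in these 9 lists stood at 3 of 166 genes, beside the 6.67% of all genes.

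**Figure D5:**
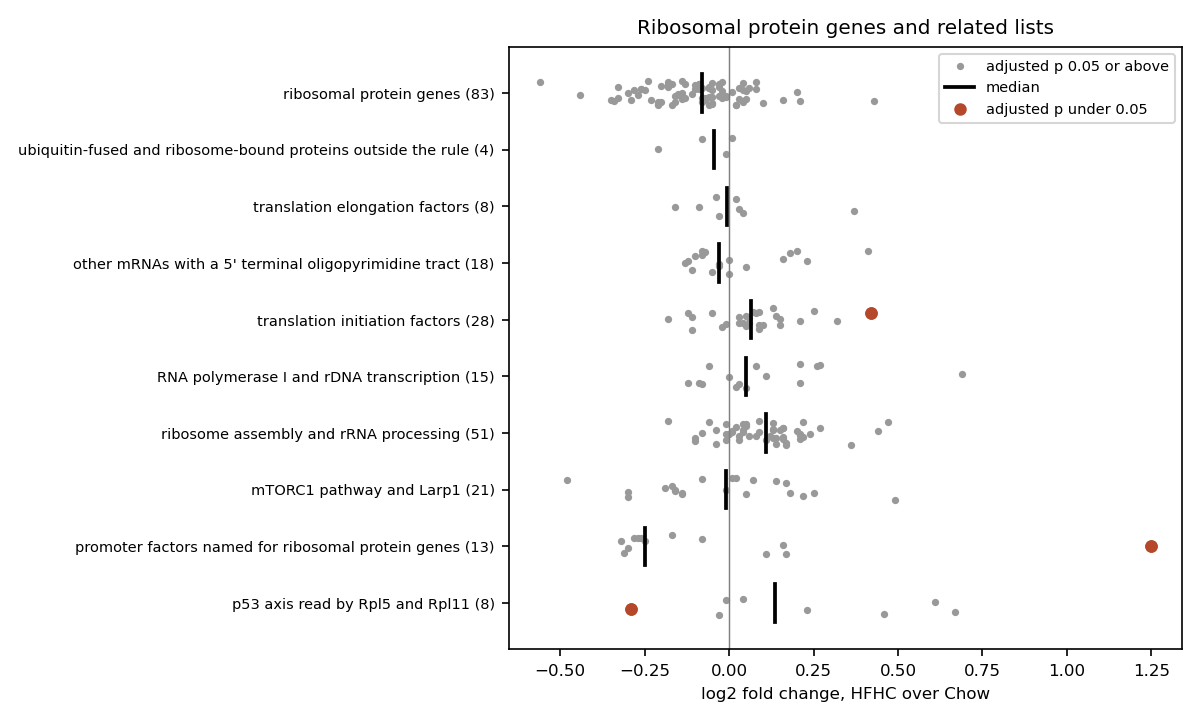
Log2 fold change of HFHC over Chow for the 83 tested ribosomal protein genes and for 9 related lists (number tested in brackets); points are genes, black bars are medians and red points passed an adjusted p under 0.05 in edgeR. No ribosomal protein gene is red, and the 3 red points are Eif6, Mycn and Mdm4.

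Markers of other liver cells were set beside these values. Of 8 Kupffer cell markers 0 were called, and their sum was 256 to 307 CPM in HFHC and 214 to 255 CPM in Chow. T and B cell markers (9 genes) summed to 2.98 to 4.76 CPM in HFHC and 2.87 to 4.25 CPM in Chow, and neutrophil and monocyte markers (5 of 6 in the table) to 3.47 to 4.8 CPM in HFHC and 3.07 to 3.71 CPM in Chow. No marker of these 2 lists was called. Stellate, sinusoidal endothelial and cholangiocyte markers had 0 calls among 6, 7 and 5 tested. Of the 9 hepatocyte markers, 2 were lower in HFHC, Cps1 (-0.75 ± 0.12) and Tat (-1 ± 0.15). None of the listed markers was at 0 in all 6 libraries, and the part of cell makeup in the values of the ribosomal protein genes was not tested.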

How the data were processed

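Each gene's deposited value was an estimated count (expected count) on a linear scale, with no normalization by the authors. Per the submitters' processing notes, STAR 2.7.3a, Partek 9 and mm10 were used, while the annotation, the strand setting and the handling of reads that match several genes were not given in the sources used here. Per the labels, libraries were stranded, rRNA-depleted and read as pairs of 75 bases.

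Expected counts were rounded. Genes were kept by filterByExpr with a minimum count of 10, and all 6 libraries entered edgeR 4.0.16 (R 4.3.3) for its quasi-likelihood test (TMM factors of 0.9705 to 1.0216). Adjustment was by Benjamini-Hochberg over 14896 genes, at a threshold of 0.05. DESeq2 1.42.0 and limma-voom (limma 3.58.1) were alternatives. The p-values rest on the spread between these 3 animals per diet. On simulated data with 14896 genes, the HFHC against Chow fit recovered 31 of the 67 genes with a 1.5-fold change and 55 of the 66 with a 2-fold change, and 6 of 155 calls were false. Coordinates are mm10, with the table's end reduced by 1 base to match GENCODE M21. Copies were found with blastn 2.17.0.

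The members and the gene lists were chosen with earlier results of these data known. Members named were the 4 with the largest and the 4 with the smallest log2 fold change at a mean of at least 5 CPM, a fixed set and the tested paralogs, and no member was called. Lists outside the members named up to 3 called genes. Values of some single genes are not reported here.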

Additional observations from a re-analysis of the deposited data

How the results depend on the processing

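No paired analysis was possible because the labels give no litter or pairing for the single livers. The mice were littermates, and the part of litter in the differences was not tested. No member was called under 20 of the 26 alternatives counted. Taking out the library trends on GC and length gave 6 calls, all lower in HFHC, and 5 with members summed with their copies. Leaving out 1 library gave 0 to 1 calls, in the single rows and in the sums. Rpl22l1 was called without Chow replicate 8 in both, and Rps6 without HFHC replicate 3 in the single rows but not in the sums. DESeq2 on the sums called 1. The median log2 fold change stayed within 1 SD (0.12) of -0.08, except for the 2 tested members that were whole in all 6 libraries, with 0.09. These 2 were Rps27l (-0.03) and Rps19bp1 (0.20), and the latter is no ribosomal protein. That SD is of the libraries' median deviations, pooled within diets, and is wider than the distance of -0.08 from 0. It therefore takes in both 0.0, without HFHC replicate 2, and -0.18, with the GC and length trends taken out. With size factors taken from the members themselves the median log2 fold change was 0.02 by construction. The genes called in the related lists numbered 3, and 5 with DESeq2 (on the sums 5 as well), 1 with size factors from the members or from the sums, and 1 to 5 with 1 library left out. The log2 ratio of summed CPM, -0.107, lay between -0.174 and -0.035 with 1 library left out. Of 475 values of named members under the alternatives, 69 changed sign and none of those was called. The causes were not tested. The limits throughout are rows that share sequence with copies, and 3 livers per diet.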
